A study of Mus musculus with 7 samples.

Results

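The genes described here are 10 members of the fibroblast growth factor (FGF) system in C2C12 myotubes, namely the ligands Fgf1, Fgf2, Fgf6, Fgf7 and Fgf9, the FGF homologous factor Fgf11, and the receptors Fgfr1, Fgfr2, Fgfr3 and Fgfr4. They were taken by exact gene symbol from the 26607 genes listed in each library. C2C12 cells are an established line of mouse myoblasts, which stop dividing and fuse to multinucleated myotubes in low serum. RNA-seq compared 3 untreated control libraries, numbered 1, 3 and 4, with 4 libraries from myotubes given electrical pulse stimulation (EPS), numbered 1 to 4, to ask which transcripts differ after pulses that make the myotubes contract. Both groups had been differentiated for 3 days in medium with 2% serum, and the EPS group then received 24 h of pulses (1 Hz) and was rested for 1 h before harvest. All 7 libraries come from the same cell line with no other treatment named. The sources do not say whether libraries of a group came from separate cultures. P values therefore cover no spread beyond that between these libraries. In limma, a gene's spread is estimated in part from the other genes tested.

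FGF ligands are secreted proteins that bind receptor tyrosine kinases together with heparan sulfate chains on the cell surface, and the receptors signal through RAS and ERK to genes such as the ETS factors and to feedback inhibitors of the Sprouty and DUSP families. In the skeletal muscle lineage, FGF signalling is known to favour myoblast proliferation and to hold back differentiation. FGF homologous factors resemble the ligands in sequence but stay inside the cell, where they bind voltage-gated sodium channels.

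The deposited values are CPM, which are a gene's counts scaled to a common library total. The recovered totals were 16616917 to 22120641 reads in the control group and 18830229 to 21892568 in the EPS group, and a level of 3 reads, used as the floor for counting error, was 0.136 to 0.181 CPM. Control replicate 4 stood apart in its lowest genes, with 1 to 5 reads on only 359 genes where each of the other 6 libraries had 2670 to 3181 such genes. Myotube markers, a list of 10 genes that includes Myog, Ckm and Ttn, summed to between 21167 and 23532 CPM in the control group and between 15669 and 23172 CPM in the EPS group. Of 8 markers of endothelial, blood, fat, glial and epithelial cells, Adgre1 and Epcam were at 0 in every library, and the sum of the list was 0.963 to 1.63 CPM in the control group and 0.584 to 1.07 CPM in the EPS group.

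Fgf9 was the member that fell with EPS, from 2.12 ± 0.187 to 0.251 ± 0.127 CPM (mean ± SD, n = 3 and n = 4). Fgf1 was higher in all 4 EPS libraries and lay at the edge of the test. Fgfr3 was higher, and Fgfr1 and Fgfr4 were lower, in every EPS library than in any control library, without passing the test. Fgf2, Fgf7, Fgf11 and Fgfr2 overlapped between the groups, and Fgf6 was not detected.

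**Figure D1:**
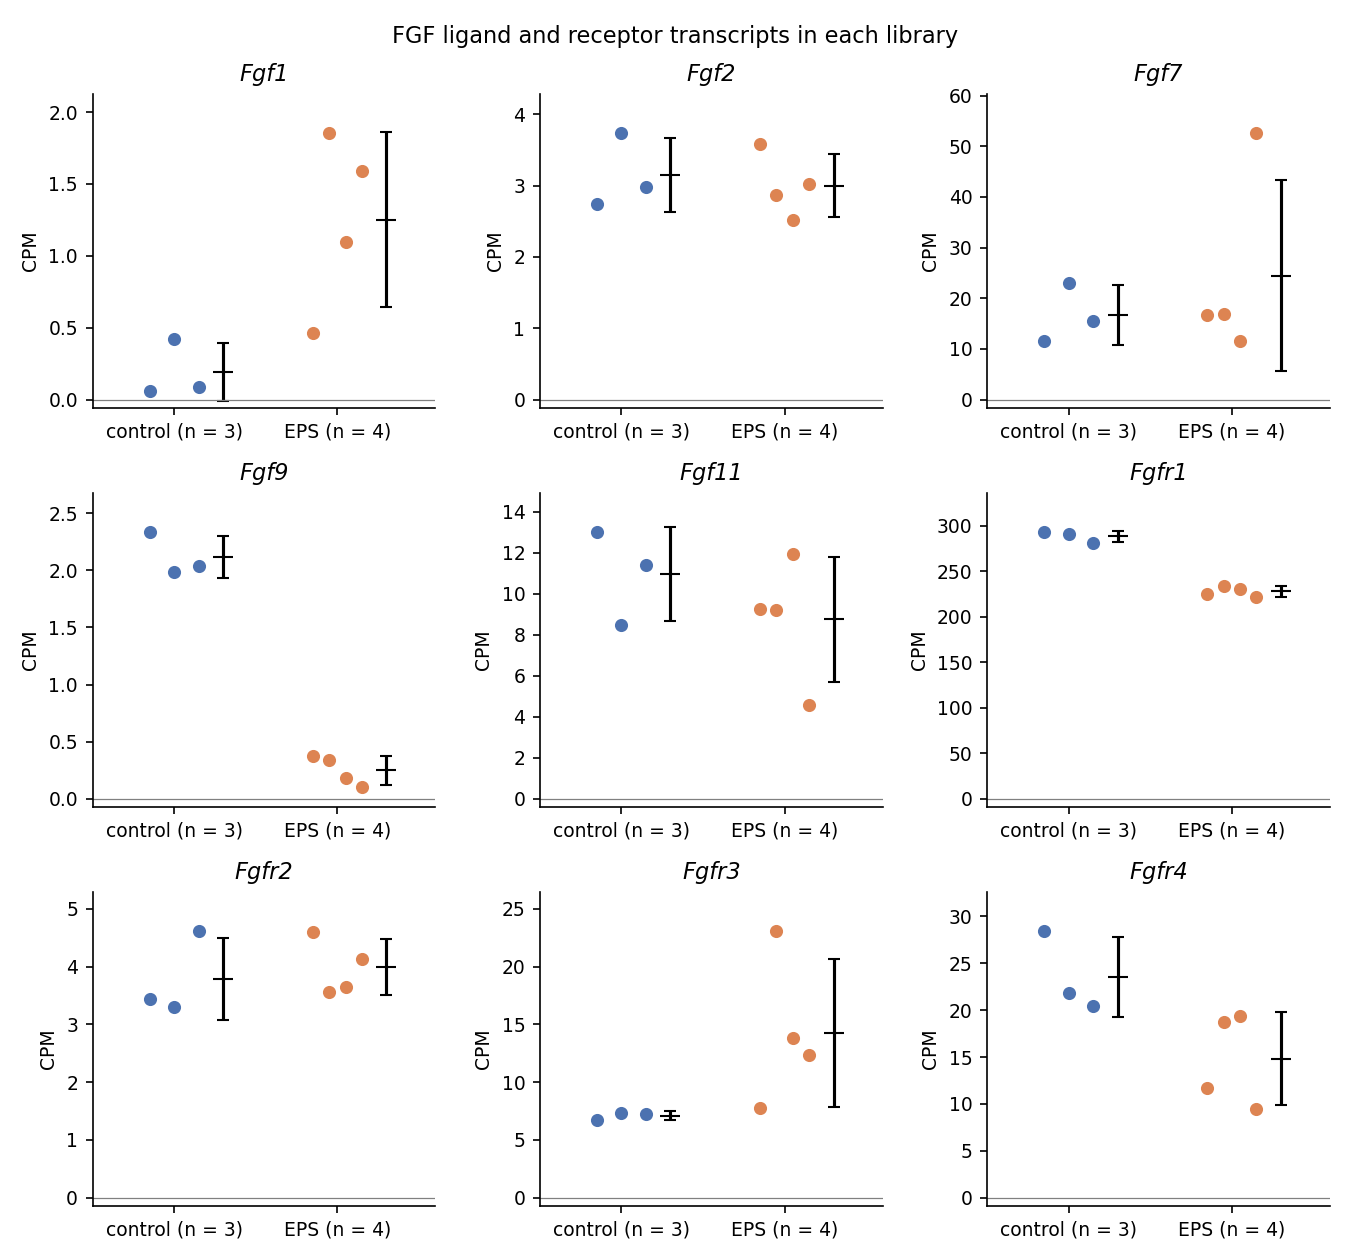
Level in CPM of each of the 9 detected FGF ligands and receptors (vertical axes, all linear, with a grey line at 0) in the control and EPS libraries. Each point is 1 library, in order of replicate number, and the black mark and bar are the mean and SD of the group. Fgf9 lies between 1.99 and 2.33 CPM in the control group and at or below 0.372 CPM in the EPS group.

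A gene was called at an unadjusted, two-sided limma P under 0.01 together with a change of more than 2-fold on the log2(CPM + 1) scale. Of the 10 members, 9 were above 0 in at least 1 library and were tested, and 1 of these was called, lower in the EPS group, with 0 called higher. Among all 19144 genes tested, 0.439% were called lower and 0.966% higher. At a Benjamini-Hochberg adjusted p under 0.05 over all genes tested, 1 member passed, against 0.141% of all genes. An unadjusted limma P under 0.05 was reached by 5 members, 2 higher and 3 lower, and by 8.4% of all genes tested higher and 3.21% lower. In these 5 members the control and EPS libraries did not overlap, while 7.76% of all genes tested lay wholly higher and 2.85% wholly lower in the EPS group. The median log2 fold change of the 9 members was -0.05, and that of all genes tested was 0.04. Among all genes with a mean of at least 1 CPM, a level that 8 members reach, the median was 0.10.

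**Figure D2:**
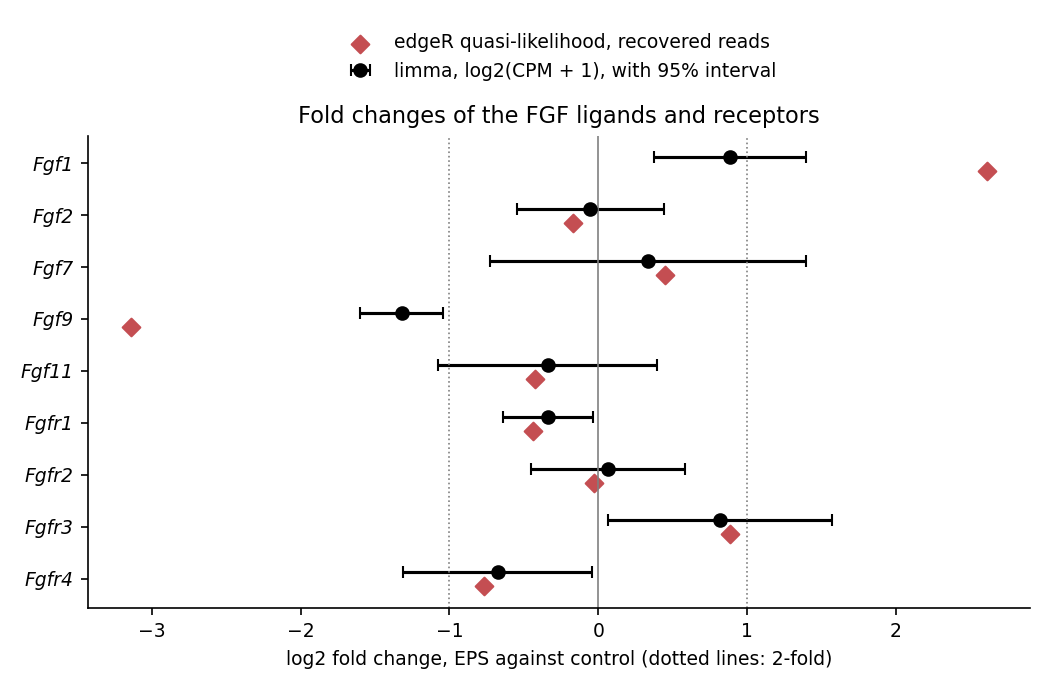
Log2 fold change, EPS against control, of the 9 tested members (horizontal axis, log2 units). Black points and bars are the limma estimate on log2(CPM + 1) with its 95% interval, red diamonds are the edgeR estimate from recovered reads, and dotted lines mark 2-fold. The interval of Fgf9, -1.60 to -1.04, lies wholly beyond the 2-fold line, and the edgeR estimates of the low genes Fgf1 and Fgf9 lie farther from 0 than those of limma.

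Per kb of annotated exon, which allows levels to be compared between genes, Fgfr1 had the highest control level, at 29.2 ± 0.624 CPM per kb. Fgfr4 followed at 6.65 ± 1.20, Fgf7 at 5.14 ± 1.81 and Fgf11 at 3.60 ± 0.752 CPM per kb, and within these 3 genes each neighbour in the order lay within the SDs of the next. Fgfr3 was at 0.993 ± 0.0490 CPM per kb. Below it, Fgf2, Fgf9 and Fgfr2 lay close together, at 0.465 ± 0.0761, 0.455 ± 0.0403 and 0.367 ± 0.0694 CPM per kb, and each neighbour again lay within the SDs. Fgf1 was lowest of the detected members at 0.0348 ± 0.0368 CPM per kb. In the EPS group Fgfr1 was again highest, at 23.1 ± 0.567 CPM per kb. Fgf7 (7.53 ± 5.81), Fgfr4 (4.19 ± 1.40), Fgf11 (2.87 ± 1.01) and Fgfr3 (1.99 ± 0.897 CPM per kb) followed, each within the SDs of its neighbour. Fgf2 (0.442 ± 0.0657), Fgfr2 (0.386 ± 0.0470) and Fgf1 (0.229 ± 0.112 CPM per kb) came next, below Fgfr3 by more than the SDs but each within the SDs of its neighbour among these 3, and Fgf9 was lowest at 0.0539 ± 0.0273 CPM per kb, outside the SD of Fgf1.

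Fgf9 encodes a secreted ligand that acts mainly through the IIIc forms of the receptors. The gene lies on chromosome 14, positions 58070547 to 58112720 of GRCm38 on the plus strand (ENSMUSG00000021974.15). Fgf9 had 40, 33 and 45 reads in control replicates 1, 3 and 4, or 2.33, 1.99 and 2.03 CPM. In EPS replicates 1 to 4 it had 8, 7, 4 and 2 reads, or 0.372, 0.341, 0.183 and 0.106 CPM. The lowest control library was more than 5 times the highest EPS library, and EPS replicate 4 was under the floor of 3 reads. The mean was 8.45-fold lower in the EPS group, and the pooled read rate was 8.32-fold lower, with an exact 95% interval of 5.20 to 13.9 that covers counting error only (118 reads against 21). In limma the log2 fold change of Fgf9 was -1.32 (SE 0.12, unadjusted P = 2.37e-06, adjusted p = 0.00909), a value that the pseudocount of 1 pulls toward 0. edgeR's quasi-likelihood test on the recovered reads gave -3.14 (adjusted p = 0.00346). The exact permutation test of the means gave p = 0.0286, the smallest that 3 against 4 libraries allow. Fgf9 was called under every alternative run, but of the limma fits that left out a library, those without EPS replicate 3 and without EPS replicate 4 gave it an adjusted p above 0.05, where its log2 fold change was -1.30 and -1.26 and 0 and 4 of all genes passed, none of them a member. Without control replicate 4, the library with few low genes, the limma log2 fold change was -1.34. In bulk RNA, fewer cells making a transcript and less of it per cell cannot be told apart.

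Fgf1, a ligand without a classical secretion signal that binds all 4 receptors, lies on chromosome 18, positions 38838673 to 38929472, minus strand (ENSMUSG00000036585.16). Its reads numbered 1, 7 and 2 in the control libraries, or 0.0583, 0.421 and 0.0904 CPM. In EPS replicates 1 to 4 it had 10, 38, 24 and 30 reads, or 0.465, 1.85, 1.10 and 1.59 CPM. Control replicates 1 and 4 were under the floor of 3 reads, and EPS replicate 1 lay just above control replicate 3. The means were 0.190 ± 0.201 and 1.25 ± 0.611 CPM, and the pooled read rate was 6.89-fold higher in the EPS group (exact 95% interval 3.60 to 14.8 from 10 and 102 reads, counting error only). On the log2(CPM + 1) scale the difference was 0.89 (SE 0.23, limma P = 0.00357, adjusted p = 0.170), short of 2-fold, and the exact permutation p was 0.0571. At this level the pseudocount sets the size of the difference, which was 1.30 with a pseudocount of 0.5 and 2.29 with 0.1, and Fgf1 was called with both and by DESeq2 (2.64). In these fits 1.33%, 2.32% and 1.66% of all genes were called higher, in the same order, and 0.611%, 0.815% and 1.4% lower. The edgeR quasi-likelihood test gave a log2 fold change of 2.61 (adjusted p = 0.0911) and called Fgf1, together with Fgf9, so that 2 members were called by that test, against 1.72% of all genes called higher and 1.57% lower. Fgf1 passed an adjusted p under 0.05 in the edgeR exact test without TMM and in DESeq2. In these tests 449 and 497 of all genes passed, against 27 in limma. Without EPS replicate 2, the edgeR quasi-likelihood test called 1 member, and Fgf1 was no longer among those called. In that fit 305 of all genes were called higher and 301 lower. Fgf1 stayed called in every other edgeR fit that left out a library. Limma called Fgf1 without control replicate 3 and without EPS replicate 1, but not when any other library was left out. Those limma fits called 232 and 194 of all genes higher, and 93 and 84 lower, in the same order. Without control replicate 4 the limma log2 fold change of Fgf1 was 0.83.

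Fgf2, the basic FGF that stimulates myoblast division in culture, was at 2.74, 3.73 and 2.98 CPM in the control libraries and 3.58, 2.87, 2.51 and 3.03 CPM in the EPS libraries. The ranges overlapped, and the log2 fold change was -0.05 with a 95% interval of -0.55 to 0.44 (limma adjusted p = 0.930). Its exons share 640 bp, or 9.44% of their length, with Nudt6 on the opposite strand and 255 bp with Gm43439 on the same strand, and the strand setting of the authors' counting is not given in the sources used here. Its gene spans positions 37348346 to 37410108 of chromosome 3, plus strand.

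Fgf7, also called keratinocyte growth factor, acts mainly on the IIIb form of Fgfr2 and lies on chromosome 2, positions 126034658 to 126091185, plus strand. It was at 11.5, 23.0 and 15.6 CPM in the control libraries. The EPS libraries had 16.8, 17.0, 11.6 and 52.5 CPM, so that EPS replicate 4 stood above the other 6 libraries and the remaining EPS libraries lay within the control range. The log2 fold change was 0.34 with a 95% interval of -0.73 to 1.40 (limma adjusted p = 0.814), and without EPS replicate 4 it was -0.10.

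Fgf6, a ligand known from the myogenic lineage, lies on chromosome 6, positions 127015586 to 127028187, plus strand. It had 0 reads in all 7 libraries, which allows a level of up to 0.0537 CPM over the control group and 0.0363 CPM over the EPS group. It was therefore not tested.

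Fgf11, the homologous factor, lies on chromosome 11, positions 69796068 to 69801857, minus strand. It was at 13.0, 8.49 and 11.4 CPM in the control libraries and at 9.26, 9.21, 12.0 and 4.57 CPM in the EPS libraries. EPS replicate 4 was below every control library and the other EPS libraries were within the control range. The log2 fold change was -0.34 with a 95% interval of -1.07 to 0.39 (limma adjusted p = 0.740), and without EPS replicate 4 it was -0.092.

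Among the receptors, Fgfr1, which is the principal FGF receptor of cultured myoblasts, spans positions 25513654 to 25575718 of chromosome 8, plus strand (ENSMUSG00000031565.18). It was at 292, 291 and 281 CPM in the control libraries and at 225, 234, 230 and 221 CPM in the EPS libraries. The libraries of each group lay close together and the groups did not overlap, with a mean 21.0% lower in the EPS group. The log2 fold change was -0.34 with a 95% interval of -0.64 to -0.03 (limma P = 0.0331, adjusted p = 0.374, exact permutation p = 0.0286, again the smallest possible). The group SDs were 6.16 and 5.60 CPM, so most of this interval's width comes from spread that limma draws from other genes. edgeR's quasi-likelihood test gave -0.44 (unadjusted P = 0.0516) and DESeq2 -0.45 (unadjusted P = 0.00575), both short of 2-fold. When each library was left out, the limma P ran from 0.0379 to 0.0900.

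Fgfr4, a receptor found in differentiating myoblasts and regenerating muscle, lies on chromosome 13, positions 55152640 to 55168759, plus strand (ENSMUSG00000005320.9). It was at 28.4, 21.8 and 20.5 CPM in the control libraries and at 11.7, 18.7, 19.4 and 9.51 CPM in the EPS libraries. The EPS values were all under the control values, and EPS replicates 1 and 4 were lowest. The mean was 37.0% lower, with a log2 fold change of -0.68 and a 95% interval of -1.31 to -0.04 (limma P = 0.0399, adjusted p = 0.399, exact permutation p = 0.0857). edgeR's quasi-likelihood test gave -0.77 (unadjusted P = 0.00837, adjusted p = 0.189) and DESeq2 -0.78 (unadjusted P = 0.00959), both short of 2-fold. When each library was left out, the limma P ran from 0.0230 to 0.137.

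Fgfr3, known for restraining the growth of cartilage, lies on chromosome 5, positions 33721674 to 33737068, plus strand (ENSMUSG00000054252.18). It was at 6.70, 7.34 and 7.28 CPM in the control libraries, and at 7.73, 23.0, 13.8 and 12.4 CPM in the EPS libraries. EPS replicate 1 lay just above the control range and the other 3 clearly above it, so the EPS group was the more spread (SD 6.42 against 0.351 CPM). The mean was 2.00-fold higher, with a log2 fold change of 0.82 and a 95% interval of 0.07 to 1.57 (limma P = 0.0363, adjusted p = 0.384, exact permutation p = 0.0571). edgeR's quasi-likelihood test gave 0.88 (unadjusted P = 0.00774, adjusted p = 0.183) and DESeq2 0.88 (unadjusted P = 0.00827), both short of 2-fold. The limma P was 0.0607 after quantile normalization and 0.0504 with median-of-ratios scaling. It ran from 0.00801 to 0.0830 when each library was left out. Without EPS replicate 2, the highest library, the limma log2 fold change of Fgfr3 was 0.57, and without EPS replicate 1, the lowest of the group, it was 1.05 and Fgfr3 was called. Its exons share 998 bp, or 13.9% of their length, with G630022F23Rik on the opposite strand.

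Fgfr2, whose IIIb and IIIc forms were not separated in these gene-level values, lies on chromosome 7, positions 130162451 to 133123350, minus strand, in the annotation used, where its exons share 314 bp, or 3.04% of their length, with the protein-coding gene Ctbp2 on the same strand. It was at 3.44, 3.31 and 4.61 CPM in the control libraries and at 4.61, 3.56, 3.65 and 4.14 CPM in the EPS libraries. The ranges overlapped, and the log2 fold change was 0.07 with a 95% interval of -0.45 to 0.58 (limma adjusted p = 0.922). Its sign turned under quantile normalization, where the value was -0.057.

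The relation between receptors was also described per kb, in measures chosen after the values had been seen and therefore given with no test. The summed level of Fgfr1 to Fgfr4 was 38.9, 36.9 and 35.7 CPM per kb in the control libraries. It was 27.7, 32.5, 31.1 and 27.2 CPM per kb in the EPS libraries, all lower than the control libraries. Fgfr1 made up 78.5 ± 2.06% of the receptor sum in the control group and 78.2 ± 4.99% in the EPS group. The share of Fgfr3 was 2.68 ± 0.237% and 6.59 ± 2.47%, without overlap, and that of Fgfr4 was 17.8 ± 2.42% and 13.9 ± 3.63%, with overlap.

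The ratio of Fgfr3 to Fgfr4 was 0.117, 0.167 and 0.176 in the control libraries and 0.326, 0.610, 0.353 and 0.644 in the EPS libraries. Each EPS library was thus above every control library. For this ratio and that of Fgf1 to Fgf9, the separation follows from the genes of each pair lying apart in opposite directions. It adds nothing to the single-gene values. For the ligands, the ratio of Fgf1 to Fgf9 was 0.0213, 0.181 and 0.0378 in the control libraries. It was 1.06, 4.62, 5.11 and 12.8 in the EPS libraries, so that Fgf9 was the more abundant of the pair per kb in the 3 control libraries and Fgf1 in EPS replicates 2, 3 and 4. In EPS replicate 1 the ratio rests on 10 reads of Fgf1 and 8 of Fgf9, which does not set the genes apart, and EPS replicate 4 holds 2 reads of Fgf9 and control replicate 1 holds 1 read of Fgf1.

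**Figure D3:**
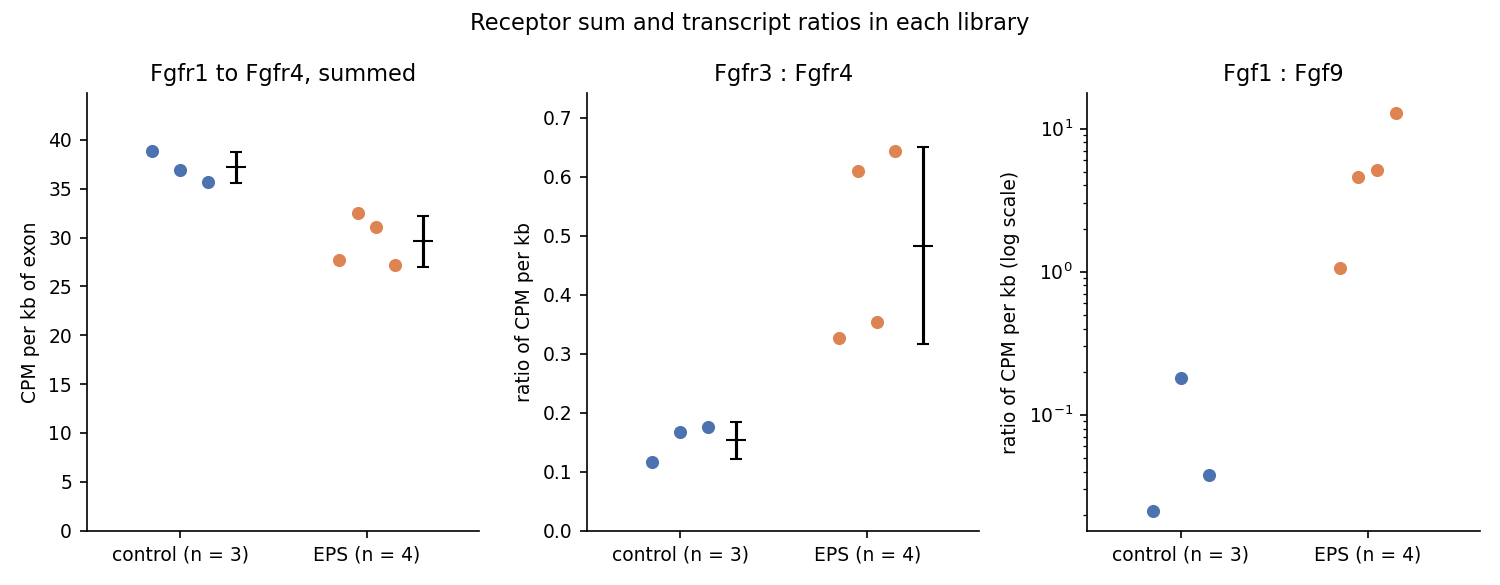
Summed receptor level in CPM per kb of exon (left), ratio of Fgfr3 to Fgfr4 (middle) and ratio of Fgf1 to Fgf9 (right, log axis), both ratios of CPM per kb, in the 3 control and 4 EPS libraries. Points are libraries, and the black mark and bar are the mean and SD where drawn. The ratio of Fgf1 to Fgf9 is at most 0.181 in the control libraries and between 1.06 and 12.8 in the EPS libraries.

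Some markers of other states of the culture differed between the groups, although limma called 0 genes in the proliferation, myoblast, myotube and fibroblast lists. Of 6 proliferation markers, 4 were higher at an unadjusted limma P under 0.05, which 8.4% of all genes tested reached in that direction, and 0 were called (2 by DESeq2 and by the edgeR quasi-likelihood test, and 3 by the edgeR exact test, which called 1.66%, 1.72% and 2.38% of all genes higher), and the sum of the list was 345 to 420 CPM in the control group and 440 to 1182 CPM in the EPS group. Mki67 was at 131, 103 and 90.0 CPM in the control libraries and at 391, 124, 205 and 452 CPM in EPS replicates 1 to 4. Myod1, the myogenic factor of myoblasts and early myotubes, was at 136, 99.8 and 160 CPM in the control libraries and at 59.2, 93.9, 88.8 and 48.0 CPM in the EPS libraries, without overlap (limma P = 0.00955, adjusted p = 0.236, exact permutation p = 0.0286). The 6 myoblast markers summed to 580 to 760 CPM in the control group and 398 to 544 CPM in the EPS group, most of it Cdh15 and Myod1. Cdh15 was lower without overlap, Id3 was called lower by the edgeR quasi-likelihood test and DESeq2 but not by limma, and Pax7 (20.2 ± 6.82 and 18.1 ± 2.94 CPM), Myf5 (6.11 ± 1.96 and 7.41 ± 3.11 CPM) and Msc overlapped. EPS replicates 1 and 4, which had the lowest Fgfr4 and the lowest Myod1, had the highest Mki67, and the part of these states in the receptor values was not tested. Myog, the myotube factor called lower by edgeR and DESeq2 but not by limma, was at 473, 565 and 1794 CPM in the control libraries, with control replicate 4 far above the others, and at 281, 605, 406 and 278 CPM in the EPS libraries. Fibroblast markers summed to 882 to 1393 CPM in the control group and 762 to 1356 CPM in the EPS group, most of it Col1a1 and Pdgfrb, which overlapped. Within that list Pdgfra was higher in the EPS group without overlap, at 18.9 ± 5.99 and 30.3 ± 3.07 CPM, and Lum, at 4.59 ± 1.41 and 2.13 ± 1.31 CPM, was called lower by the edgeR quasi-likelihood test and DESeq2 but not by limma. Of all genes tested, 1.57%, 1.21% and 1.4% were called lower by the edgeR quasi-likelihood test, the edgeR exact test and DESeq2. Without overlap, 7.76% lay wholly higher and 2.85% wholly lower.

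Promoter windows from RefSeq (GRCm38.p6), covering 250 bases before to 50 bases after the annotated start, were matched by symbol for 8 of the 10 members, all but Fgf1 and Fgfr1, with 9 windows. Windows of Fgf9, Fgfr3 and Fgfr4 are shown because, of these 8 members, they are the ones that did not overlap between the groups. They are written 5′ to 3′ on the plus strand, with capitals marking the E-box CANNTG, the class of site bound by Myod1 and its relatives, and the core GCGTG of the aryl hydrocarbon receptor element, read on both strands (CACGC on the other strand). The windows are chr14:58072436-58072735 for Fgf9, which lies inside the gene span given above, downstream of its first position, chr5:33721474-33721773 for the more upstream window of Fgfr3, and chr13:55152568-55152867 for Fgfr4.
Fgf9: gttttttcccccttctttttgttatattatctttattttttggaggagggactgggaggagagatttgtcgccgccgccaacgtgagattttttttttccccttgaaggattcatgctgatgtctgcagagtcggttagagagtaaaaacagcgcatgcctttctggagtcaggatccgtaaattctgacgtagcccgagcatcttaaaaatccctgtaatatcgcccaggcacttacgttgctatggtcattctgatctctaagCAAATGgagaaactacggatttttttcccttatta
Fgfr3: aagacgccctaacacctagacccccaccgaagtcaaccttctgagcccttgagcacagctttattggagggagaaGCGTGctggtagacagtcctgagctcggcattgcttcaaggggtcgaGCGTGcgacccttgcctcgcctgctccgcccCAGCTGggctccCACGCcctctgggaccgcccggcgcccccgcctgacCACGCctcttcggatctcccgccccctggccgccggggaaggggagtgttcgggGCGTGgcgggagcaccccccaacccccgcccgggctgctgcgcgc
Fgfr4: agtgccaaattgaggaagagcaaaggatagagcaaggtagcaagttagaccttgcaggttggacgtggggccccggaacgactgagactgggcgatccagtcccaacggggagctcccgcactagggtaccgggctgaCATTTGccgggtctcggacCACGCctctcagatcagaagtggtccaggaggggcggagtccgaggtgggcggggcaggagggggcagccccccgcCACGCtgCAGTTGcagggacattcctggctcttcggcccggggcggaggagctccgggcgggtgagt

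The Fgf9 window held 1 E-box and 0 receptor cores and had a GC content of 42.7%. The Fgfr3 window shown held 1 E-box and 5 cores at 69.7% GC, while its other window (chr5:33722056-33722355) held 0 E-boxes and 1 core at 73% GC. The Fgfr4 window held 2 of each at 65.3% GC. Among 32851 windows of the same length, 72.3% held at least 1 E-box and 32.4% at least 1 core. These matches describe the letters of the windows and are not binding sites.

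The 3 genes whose log2(CPM + 1) most closely followed each of the 8 members with a mean of at least 1 CPM, which leaves out Fgf1 and Fgf6, were taken over the 7 libraries from 10469 genes with a mean of at least 5 CPM, by Pearson's r. The r values describe 7 points that share library depth and the 2 groups. For Fgf9 they were Insig1, Fgfr1 and Dhcr7, with r between 0.985 and 0.988, and for Fgfr1 they were Mest, Dhcr7 and Insig1, with r between 0.987 and 0.989. Insig1 and Dhcr7 belong to sterol regulation and synthesis. For Fgfr4 they were Gm10554, Igfbp5 and Otog (0.973 to 0.985), and for Fgfr3 Fmo1, Ptpdc1 and Osbpl2 (0.970 to 0.985). For Fgf2 they were Hgf, Lrrc4c and Fam57a (0.943 to 0.969), for Fgf7 Asf1b, Gm2115 and Cenpi (0.957 to 0.961), for Fgf11 Dpp3, Nrxn3 and Mylk (0.976 to 0.989), and for Fgfr2 Rps14, Rdbp and Prmt7 (0.977 to 0.989).

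Among other genes of the pathway, the carrier Fgfbp1, a secreted protein that releases FGFs from the matrix, was the gene that rose. It was at 9.79, 13.4 and 14.8 CPM in the control libraries and at 36.9, 76.4, 30.5 and 30.2 CPM in the EPS libraries. The groups did not overlap, the mean was 3.43-fold higher, and the log2 fold change was 1.61 (SE 0.33, limma P = 0.000938, adjusted p = 0.101, exact permutation p = 0.0571). The edgeR test gave 1.65 (adjusted p = 0.00380). Of the 5 co-receptors, decoy receptor and carriers, this was the member called, where limma called 0.966% of all genes higher. Klb, the co-receptor of endocrine FGFs, had at most 4 reads in any library.

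Of 13 other FGF ligands, 9 were tested and 0 were called in either direction by limma or edgeR. DESeq2 called Fgf21 lower, where it called 1.4% of all genes lower. At an unadjusted limma P under 0.05, 1 ligand was higher and 1 lower, against 8.4% and 3.21% of all genes tested. Fgf3, Fgf4, Fgf20 and Fgf23 had 0 reads in all libraries. Fgf10, a ligand of the IIIb receptor forms, had 15, 8 and 0 reads in the control libraries and 13, 24, 20 and 27 in the EPS libraries (limma adjusted p = 0.418). Fgf17 had 4, 1 and 15 reads in the control libraries and at most 2 in any EPS library (limma adjusted p = 0.408). The 0 reads of Fgf10 and the 15 of Fgf17 were both in control replicate 4, the library with few low genes. Fgf21, an endocrine ligand known to be secreted by stressed muscle, is named for its level although the rule did not choose it. It was at 20.5, 38.9 and 17.7 CPM in the control libraries and at 13.3, 21.6, 7.72 and 13.3 CPM in the EPS libraries, with overlap (limma adjusted p = 0.430). Fgf5 was the ligand of this list whose groups did not overlap, at 7.11 ± 0.341 CPM in the control group and 4.81 ± 1.10 CPM in the EPS group (limma adjusted p = 0.480). Among all genes tested, 2.85% lay wholly lower. Of the 3 other homologous factors, 0 were called by limma, edgeR or DESeq2 and 0 had an unadjusted limma P under 0.05. Fgf14 had at most 6 reads in any library, and Fgf13 was at 14.0 ± 3.93 CPM in the control group and 10.8 ± 5.39 CPM in the EPS group.

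Downstream of the receptors, 13 feedback genes and targets were tested, of which limma called 0, the edgeR quasi-likelihood test 1 (Dusp6), the edgeR exact test 0 and DESeq2 2 (Dusp6 and Spry2), all lower, against 0.439%, 1.57%, 1.21% and 1.4% of all genes called lower by these tests in the same order. In limma 1 was lower at an unadjusted P under 0.05, against 3.21% of all genes tested, and the median log2 fold change of the list was -0.27, against 0.10 for all genes with a mean of at least 1 CPM. That gene was Dusp6, the phosphatase that inactivates ERK, at 25.0, 37.7 and 34.3 CPM in the control libraries and at 16.7, 18.8, 14.3 and 17.7 CPM in the EPS libraries. The groups did not overlap, with a log2 fold change of -0.88 (SE 0.20, limma P = 0.00172, adjusted p = 0.127, exact permutation p = 0.0286) that was short of 2-fold, and -1.04 in edgeR (adjusted p = 0.0186). Spry2, an inhibitor of receptor tyrosine kinase signalling, averaged 45.2 ± 22.4 CPM in the control group and 24.5 ± 8.58 CPM in the EPS group, with overlap (limma adjusted p = 0.440). The ETS factor Etv1 was the other gene of the list without overlap, where 2.85% of all genes tested lay wholly lower, at 9.33, 8.85 and 10.3 CPM in the control libraries and 7.40, 6.53, 5.48 and 7.22 CPM in the EPS libraries (limma adjusted p = 0.472, exact permutation p = 0.0286).

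Of 18 intracellular transducers, 0 were called by limma, edgeR or DESeq2 and 2 were higher at an unadjusted limma P under 0.05, against 8.4% of all genes tested. These were Mapk3, which encodes ERK1, at 82.9 ± 19.7 and 109.6 ± 12.8 CPM, and Map2k2, which encodes the ERK kinase MEK2, at 112 ± 16.8 and 141 ± 9.49 CPM. Both overlapped between the groups, with limma adjusted p = 0.425 and 0.426. The adaptor Grb2 was the transducer without overlap, lower in the EPS group at 117 ± 12.3 and 98.6 ± 5.95 CPM (limma adjusted p = 0.545). Of all genes tested, 2.85% lay wholly lower. Of 18 heparan sulfate proteoglycans and enzymes, 17 were tested, 0 were called by any of these tools and 1 was lower at an unadjusted limma P under 0.05, against 3.21% of all genes tested. This was the syndecan Sdc1, at 188 ± 84.0 CPM in the control group and 114 ± 22.2 CPM in the EPS group, with overlap. Sdc3, with the next lowest P, was at 40.0 ± 4.57 and 47.1 ± 5.19 CPM. The medians of these lists were 0.07 and -0.03 on the log2 scale.

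**Figure D4:**
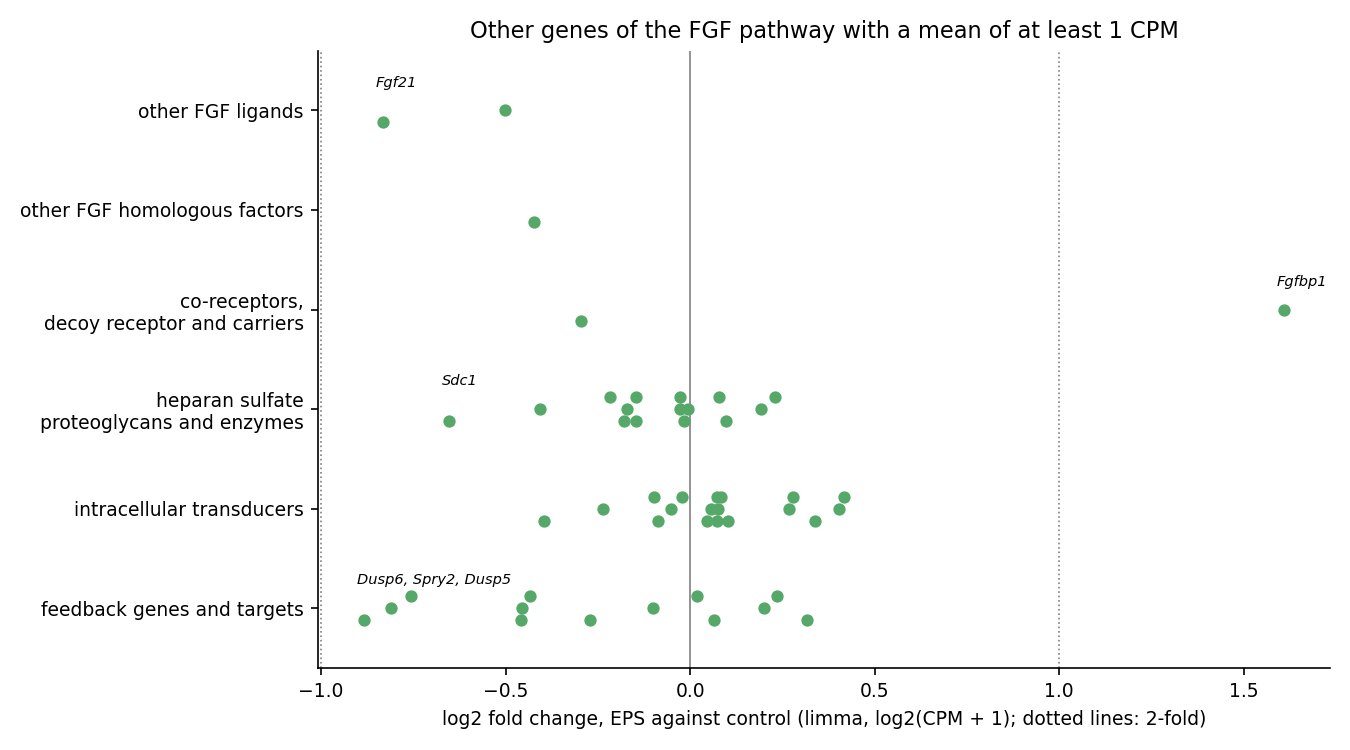
Log2 fold change, EPS against control (horizontal axis, limma on log2(CPM + 1)), of the pathway genes with a mean of at least 1 CPM, by list. Each point is 1 gene, points are spread vertically for legibility, dotted lines mark 2-fold, and genes beyond 0.6 in either direction are named from left to right. Fgfbp1 is beyond the upper 2-fold line at 1.61, and Dusp6 has the lowest value of its list at -0.88.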

How the data were processed

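Poly(A) RNA of 3 control and 4 EPS libraries was read from both ends for 100 bp. The submitters' processing notes name STAR 2.5.4b and GRCm38, and the authors deposited CPM per gene symbol. The read counter, annotation and strand setting are not given in the sources used here. Every value gave whole reads within 0.1, that is 100% of values, so reads were recovered.

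The members and gene lists were chosen with earlier results of these data known. The 19144 genes above 0 anywhere were fitted as log2(CPM + 1) with limma 3.58.1 in R 4.3.3 (empirical Bayes with a trend, no covariate), with Benjamini-Hochberg adjustment over all of them. Alternatives were edgeR 4.0.16 and DESeq2 1.42.0 on recovered reads, pseudocounts of 0.1 or 0.5, a mean of at least 1 CPM, quantile or median-of-ratios scaling, P under 0.001, a replicate block, and each library left out. edgeR without each library was added after the data were seen. The edgeR quasi-likelihood test called 329 genes higher and 300 lower. The scripts were tested on simulated data. Exact two-sided permutation tests covered all 35 divisions of 7 libraries into 3 and 4.

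All members are named, and from the pathway lists the genes called or, where fewer than 3 passed, those with the 2 lowest P. Fgf21, list genes named for not overlapping, markers named beside the sums and the promoter windows shown were chosen after their values were seen. Positions and exon lengths are those of GENCODE M21 by symbol. Hras, Mymk and Adgre1 were matched by older symbols.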

Additional observations from a re-analysis of the deposited data

Results flagged for a closer look

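Fgf7 in EPS replicate 4 was at 52.5 CPM, or 989 reads, while the other 3 EPS libraries were at 16.8, 17.0 and 11.6 CPM. It stood out because its gap to the nearest library took up more of the group's range than Dixon's limit of 0.829 for 4 libraries. The rule was applied to CPM and not to the log2(CPM + 1) scale of the fits, on which high values stand out less. Of 9 EPS groups of 4 libraries looked at, 1 for each detected member, this was the 1 that passed. Chance passes about 5% of such groups if values are normally distributed, which was not tested for CPM. Groups of 3 were not looked at. The same library had the highest Mki67 (452 CPM) and the lowest Fgf11 (4.57 CPM) of the 7. EPS replicate 1 had the next highest Mki67 (391 CPM), with Fgf7 at 16.8 CPM. The part of Mki67 and Fgf11 in the Fgf7 value was not tested.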

How the results depend on the processing

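Fgf9 was called under every alternative run, with a log2 fold change between -3.19 and -1.26. The number of members called, 1 in limma, was 2 with a pseudocount of 0.1 or 0.5, in DESeq2 and under edgeR's quasi-likelihood fit (Fgf1 and Fgf9), and 3 in the edgeR exact test without TMM (with Fgfr3). All genes called higher and lower also rose in share, from 0.966% and 0.439% in limma to 2.32% and 0.815% with a pseudocount of 0.1, 1.33% and 0.611% with 0.5, 1.72% and 1.57% in the edgeR quasi-likelihood test, 1.66% and 1.4% in DESeq2, and 2.38% and 1.21% in the edgeR exact test. The number of members called was 1 to 3 when each library was left out, in limma and in edgeR alike. In limma it was 2 without control replicate 3 and 3 without EPS replicate 1, where 232 and 194 of all genes were called higher and 93 and 84 lower. Across the fits that left out a library, limma called 140 to 232 of all genes higher and 57 to 110 lower. The edgeR quasi-likelihood test called 237 to 410 higher and 196 to 473 lower. At an adjusted p under 0.05, 2 members (Fgf1 and Fgf9) passed in the edgeR exact test and in DESeq2. Of all genes, 449 and 497 passed in these tests, against 27 in limma. In the limma fits that left out a library, 0 to 1 members passed, and 0 to 27 of all genes. Same-numbered libraries did not deviate together (r = 0.25, -0.45 and 0.068 for replicates 1, 3 and 4). With the replicate block, which leaves EPS replicate 2 without a partner, 1 member was called and 0 passed at an adjusted p under 0.05. Of all genes, 0 passed at that threshold in this fit, and 1628 had an unadjusted P under 0.05. Over all genes, the calls were 185 higher and 84 lower in limma, 130 and 122 when quantile-normalized, 134 and 120 under median-of-ratios scaling, and 99 and 62 with the replicate block. On deposited CPM, genes averaging 1 CPM or more had a median log2 fold change of 0.10, against 0.0052 when quantile-normalized.

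Direction turned for 3 overlapping members. Fgfr2 was at -0.057 after quantile normalization, -0.024 with median-of-ratios scaling, -0.028 in the edgeR quasi-likelihood test and -0.043 in DESeq2. It was at 0.071 in the edgeR exact test without TMM, and between -0.0053 and 0.19 when each library was left out. Fgf2 lay between -0.12 and 0.045, and Fgf7 between -0.10 and 0.59, when each library was left out. The cause was not tested. The remaining ranges were 0.76 to 2.72 for Fgf1, 0.57 to 1.05 for Fgfr3, -0.45 to -0.32 for Fgfr1, -0.82 to -0.50 for Fgfr4 and -0.50 to -0.09 for Fgf11. Of the alternative values of members, 126 kept direction and side of the threshold, 9 moved past it in the same direction, and 8 reversed direction. Fgf1 and Fgf6 have a mean under 1 CPM and gave no value at that minimum. Fgf6, with 0 reads, was untested, and depth limits Fgf1 and Fgf9, of which single libraries hold as few as 1 and 2 reads.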
